A study of Mus musculus with 15 samples.

Results

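Fibroblast marker genes are described here in RNA from sorted nuclei of mouse ventricular muscle. The set holds 35 genes chosen as markers of cardiac fibroblasts, all of them among the 16610 genes of the deposited table that requires a mean count of 10 or more. The lowest mean was that of Medag, with 34.5 counts per library. The study compared mice labelled Pgr knockout (Pgr_KO) with mice labelled wild type (Pgr_WT), in females and males, and asks about sex-specific control of heart maturation by the progesterone receptor, the product of Pgr. Nuclei were sorted for Pcm1, a centriolar satellite protein used as a mark of cardiomyocyte nuclei, so that all groups share this gate. RNA was depleted of ribosomal RNA and made into strand-specific libraries. By label, the 15 libraries comprise 4 from knockout females and 4 from knockout males, with 3 from wild-type females and 4 from wild-type males. The tissue label gives a range of numbers without a unit, and age, strain background and the extent of the Pgr deletion were not stated there. Nothing in the labels ties replicates to separate animals, so p-values measure only the spread between these samples.

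Cardiac fibroblasts lie between the muscle cells and make, anchor and remodel the extracellular matrix of the heart. They are recognised by the receptor Pdgfra and the transcription factor Tcf21, and by secreted products such as the small leucine-rich proteoglycans Dcn, Lum, Bgn and Ogn, fibulins, fibrillin-1 (Fbn1) and enzymes that crosslink or trim the matrix. Periostin (Postn) is a matricellular protein known for its rise when fibroblasts are activated after injury. Several of the 35 are also made by other cells, for example vimentin (Vim) and Sparc in endothelial cells and Mgp in vascular cells.

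Libraries held 24.4 to 139.4 M counts. Levels below are normalised counts (CPM, with TMM scaling of library sizes), and a floor of 3 counts equals 0.0219 to 0.117 CPM, for counting error only. CPM is not scaled by gene length, so genes are ranked against each other only where a value is given per kilobase (kb) of gene body. Pgr reads went against the genotype labels in all 15 libraries: 6.10 to 12.5 CPM in the 8 libraries labelled knockout and at most 0.267 CPM in the 7 labelled wild type. The genotype labels are therefore kept as labels throughout, and no direction below is one of a verified knockout. Pecam1, a surface protein of endothelial cells, stood at 37.0 to 79.5 CPM in 6 libraries and at 2.62 to 8.06 CPM in the other 9, with none between. The 6 libraries at or above 20 CPM are called Pecam1-high here and the other 9 Pecam1-low. They are a description of the data and not groups of the study. The Pecam1-high libraries are knockout-labelled female replicates 1 and 2, knockout-labelled male replicates 1 and 2, and replicate 1 of each wild-type group. Set apart in another way were 3 libraries, here called mixed-sex, of which knockout-labelled female 2 is also Pecam1-high. Their reads of genes specific to the other sex stood at 3.07% (knockout-labelled female 2), 3.07% (wild-type-labelled female 2) and 3.50% (wild-type-labelled male 2). These are percentages of the other sex's level, against at most 0.254% in the rest. The Pcm1 transcript ranged from 135 to 239 CPM over all libraries, and 12 cardiomyocyte genes summed to 56126 to 93548 CPM. Defining fibroblast markers were present in every library: no library was at 0 for Pdgfra, Dcn or Tcf21.

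The upstream sequences of 4 of the genes are shown because these genes bracket the patterns below. Pdgfra is the defining receptor, Postn the activation marker and Bgn a proteoglycan that differed widely between the Pecam1 levels, and Ogn is a proteoglycan that did not. RefSeq (GRCm38.p6) gave an upstream window for 23 of the 35 genes. Each sequence is the 250 bases before the annotated start, printed 5′ to 3′ on the plus strand, which is the strand of all 4 genes, and capitals mark CAGCTG or GGAATG.
Pdgfra (chr5:75152001-75152250, plus strand): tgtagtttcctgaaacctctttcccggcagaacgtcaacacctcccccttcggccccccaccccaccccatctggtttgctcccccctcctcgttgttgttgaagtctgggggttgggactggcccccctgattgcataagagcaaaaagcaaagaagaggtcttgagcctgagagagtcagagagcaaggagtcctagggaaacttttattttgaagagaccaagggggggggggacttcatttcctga
Postn (chr3:54360857-54361106, plus strand): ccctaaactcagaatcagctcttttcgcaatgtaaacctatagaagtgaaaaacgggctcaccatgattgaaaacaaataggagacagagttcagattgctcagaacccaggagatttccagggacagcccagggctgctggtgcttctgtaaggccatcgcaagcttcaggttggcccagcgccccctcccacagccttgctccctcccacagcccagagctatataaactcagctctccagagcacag
Bgn (chrX:73483351-73483600, plus strand): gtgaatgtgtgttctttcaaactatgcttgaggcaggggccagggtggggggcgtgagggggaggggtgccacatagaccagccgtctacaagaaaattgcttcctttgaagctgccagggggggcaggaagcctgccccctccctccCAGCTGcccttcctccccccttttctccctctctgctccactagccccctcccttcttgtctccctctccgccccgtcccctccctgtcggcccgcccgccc
Ogn (chr13:49607765-49608014, plus strand): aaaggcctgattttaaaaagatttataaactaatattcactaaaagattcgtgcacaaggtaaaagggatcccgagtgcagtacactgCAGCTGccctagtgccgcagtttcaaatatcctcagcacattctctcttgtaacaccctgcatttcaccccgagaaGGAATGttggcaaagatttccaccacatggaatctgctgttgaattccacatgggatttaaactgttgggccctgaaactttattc

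The letters of 3 short motifs were searched on both strands of these windows: CAGCTG, an E-box form that basic helix-loop-helix factors such as Tcf21 can bind, TGANTCA, the AP-1 form, and GGAATG, the TEAD form. CAGCTG occurred in 9 of the 23 windows (39.1%), those of Bgn, Dpt, Gsn, Htra3, Ogn, Pcolce, Pcolce2, Sparc and Timp2, against 13% of all 32851 windows of this length. TGANTCA occurred in 0 of 23 against 6.75% of all windows, and GGAATG in 2 of 23 (Abca8a and Ogn) against 12.6%. The median GC content was 58.4% in the 23 windows and 52.4% in all windows, and CAGCTG holds more G and C than A and T. Ogn and Pcolce2, the exceptions to the pattern described next, are among the 9. A match is a description of letters and not a binding site.

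Nearly all fibroblast marker genes were far higher in the Pecam1-high libraries. In 33 of 35, every one of the 6 Pecam1-high libraries lay above every one of the 9 Pecam1-low libraries, which was so for 13.6% of the 17455 tested genes. The median ratio of medians (Pecam1-high over Pecam1-low) was 8.30 over the 35 genes, or 3.05 on the log2 scale, and the median over all tested genes was -0.01. A ratio at or above 8.30 was reached by 3.64% of tested genes. Ratios ran from 0.740 for Ogn to 16.9 for Fbln2. The smallest gap, the lowest Pecam1-high library over the highest Pecam1-low library, was 1.31-fold (Thbs1) and the widest 3.48-fold (Fn1), with a median of 2.61 over the 33 genes. Leaving out the 3 mixed-sex libraries also gave 33 genes. Medag, 1 of the 33, met the mean count of 10 only through the Pecam1-high libraries. These values are a description, with no test, because the Pecam1 levels were read from the same libraries. In whole-tissue or sorted bulk RNA, fewer cells of a type and less RNA per cell cannot be told apart.

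**Figure D1:**
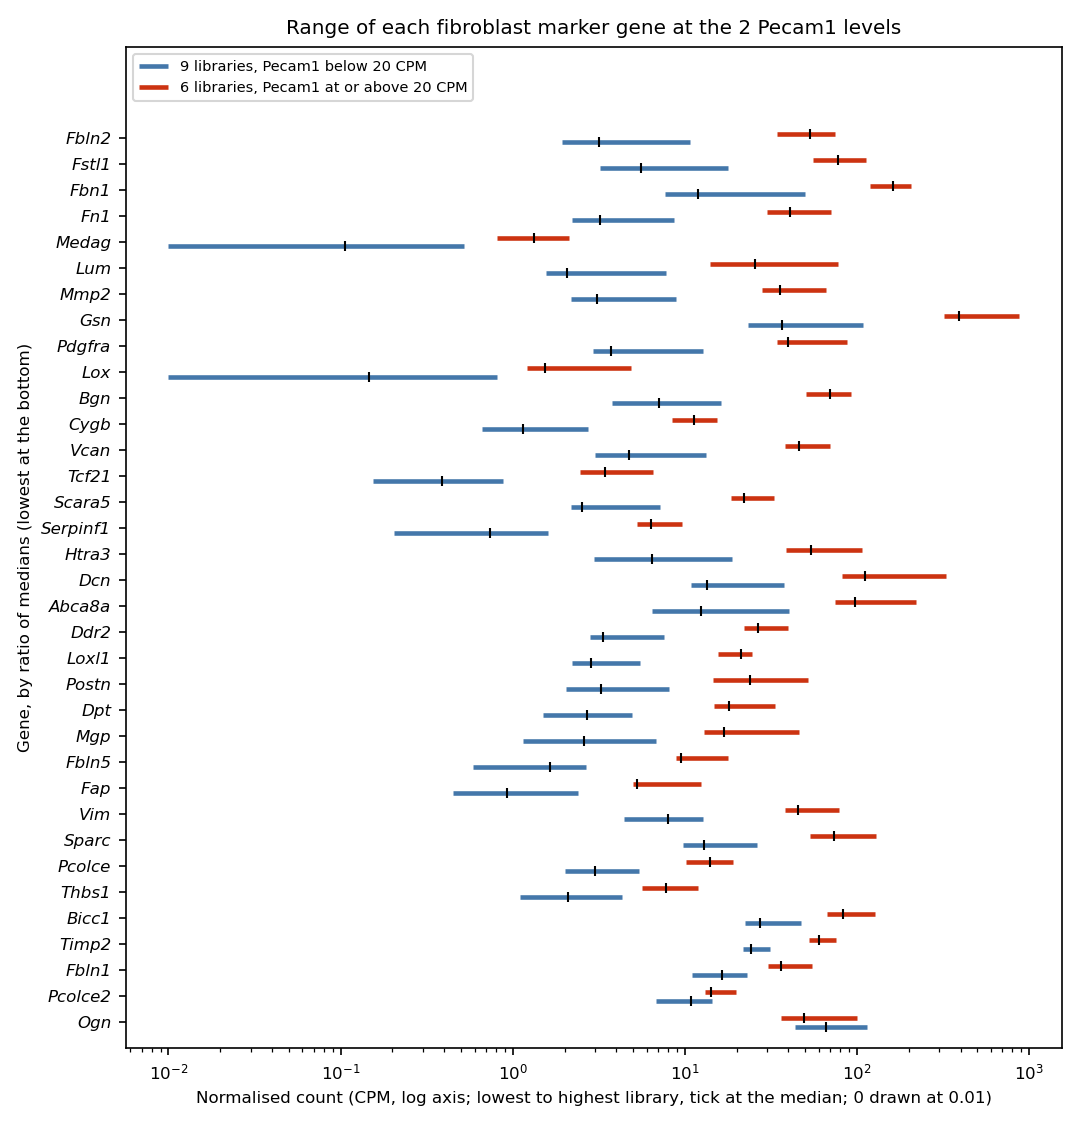
Range of each fibroblast marker gene over the 6 Pecam1-high libraries (red) and the 9 Pecam1-low libraries (blue), in CPM on a log axis, with ticks at the medians and 0 drawn at 0.01. The red and blue ranges are apart in 33 of 35 genes, and overlap in Ogn and Pcolce2 at the bottom.

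The identity markers, 6 receptors, surface proteins and a transcription factor, all separated the 2 levels, with log2 ratios of 2.53 to 3.41. Pdgfra, the receptor of platelet-derived growth factor A (chromosome 5, 75152292 to 75198215, plus strand), stood at 34.3 and 87.4 CPM in knockout-labelled females 1 and 2, at 38.9 and 40.5 CPM in knockout-labelled males 1 and 2, and at 47.4 and 36.6 CPM in the wild-type-labelled female 1 and male 1. In the Pecam1-low libraries Pdgfra stood at 3.61 and 4.87 CPM in knockout-labelled females 3 and 4, 2.93 and 3.61 CPM in knockout-labelled males 3 and 4, 6.91 and 6.54 CPM in wild-type-labelled females 2 and 3, and 12.8, 3.56 and 3.75 CPM in wild-type-labelled males 2, 3 and 4. The 2 levels did not overlap, and knockout-labelled female 2 and wild-type-labelled male 2 were the highest of their level.

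Tcf21, the transcription factor of the epicardial and fibroblast lineage (chromosome 10, 22817281 to 22820174, minus strand), lies in a short gene and gave the fewest reads of the identity markers. It stood at 2.47 and 6.50 CPM in knockout-labelled females 1 and 2, 2.84 and 4.004 CPM in knockout-labelled males 1 and 2, and 4.35 and 2.87 CPM in wild-type-labelled female 1 and male 1. In the Pecam1-low libraries, in the same order of groups, Tcf21 stood at 0.154 and 0.424 CPM, 0.173 and 0.241 CPM, 0.420 and 0.489 CPM, and 0.877, 0.236 and 0.389 CPM. These low values rest on 6 to 37 reads per library, so their order carries wide counting error.

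Abca8a, a lipid transporter, had the highest mean CPM of the identity markers. It stood at 75.0 and 219.7 CPM, 87.2 and 89.7 CPM, and 122 and 106 CPM in the Pecam1-high libraries, in the order given for Tcf21. The Pecam1-low libraries stood at 12.4 and 12.6 CPM, 6.65 and 6.71 CPM, 13.01 and 20.6 CPM, and 40.4, 6.41 and 9.15 CPM. Both knockout-labelled males were near the low end, and wild-type-labelled male 2 was again highest. Of the remaining identity markers, the collagen receptor Ddr2 had medians of 26.5 and 3.37 CPM at the 2 levels, the ferritin receptor Scara5 21.9 and 2.52 CPM, and the surface protease Fap 5.31 and 0.922 CPM.

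Among the proteoglycans, with the matrix protein Dpt counted in this class, 5 of 6 genes separated the levels, and Ogn did not. Dcn, decorin, which binds collagen fibrils (chromosome 10, 97479609 to 97518143, plus strand), stood at 81.3 and 328 CPM in knockout-labelled females 1 and 2, 120.4 and 138 CPM in knockout-labelled males 1 and 2, and 102 and 85.2 CPM in wild-type-labelled female 1 and male 1. In the Pecam1-low libraries Dcn stood at 12.9 and 19.5 CPM in knockout-labelled females, 12.2 and 13.4 CPM in knockout-labelled males, 29.1 and 22.0 CPM in wild-type-labelled females, and 37.6, 10.8 and 13.3 CPM in wild-type-labelled males. One library, knockout-labelled female 2, held 3.22 times the median Dcn of the other 5 Pecam1-high libraries. Its next-door gene Lum, lumican (chromosome 10, 97565128 to 97572703, plus strand), ranged from 14.0 to 77.3 CPM (median 25.4) in the Pecam1-high and from 1.56 to 7.75 CPM (median 2.07) in the Pecam1-low libraries. Bgn, biglycan, and Vcan, the large proteoglycan versican, had log2 ratios of 3.31 and 3.27, and Dpt, dermatopontin, which binds decorin, 2.75.

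Ogn, osteoglycin or mimecan (chromosome 13, 49608046 to 49624501, plus strand), did not share this split. Ogn stood at 47.9 and 99.4 CPM in knockout-labelled females 1 and 2, 50.3 and 66.8 CPM in knockout-labelled males 1 and 2, and 43.0 and 36.1 CPM in wild-type-labelled female 1 and male 1. Its Pecam1-low libraries stood at 76.7 and 66.3 CPM in knockout-labelled females, 45.2 and 43.6 CPM in knockout-labelled males, 114 and 43.7 CPM in wild-type-labelled females, and 81.6, 90.3 and 60.1 CPM in wild-type-labelled males. The levels overlapped over most of their range, and the log2 ratio of medians was -0.43. Ogn was also the only one of the 35 whose Pecam1-low median per kilobase of gene body, 4.03 CPM per kb, exceeded its Pecam1-high median, 2.98 CPM per kb. At the Pecam1-low level it was the highest of all 35 per kilobase, the next being Vim at 0.893 CPM per kb. The Ogn gene lies inside Cenpp, a centromere protein gene on the opposite strand, which itself stood at 47.6 to 61.0 CPM in the Pecam1-high and 61.1 to 83.4 CPM in the Pecam1-low libraries. The kit marks strand, and the table's name carries an abbreviation that can be read as counting on the reverse strand but is nowhere spelled out. The share of Cenpp reads in Ogn was not tested.

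Genes of elastic fibres and crosslinking all separated the levels, with log2 ratios of 1.15 (Fbln1) to 4.08 (Fbln2). Fbn1, fibrillin-1, the main protein of microfibrils (chromosome 2, 125300594 to 125507993, minus strand), stood at 139.6 and 195 CPM in knockout-labelled females 1 and 2, 119 and 207 CPM in knockout-labelled males 1 and 2, and 165 and 159.5 CPM in wild-type-labelled female 1 and male 1. In the Pecam1-low libraries, Fbn1 stood at 7.68 and 14.8 CPM in knockout-labelled females, 12.0 and 13.5 CPM in knockout-labelled males, 19.2 and 10.04 CPM in wild-type-labelled females, and 49.6, 8.84 and 10.4 CPM in wild-type-labelled males. Wild-type-labelled male 2 held 4.43 times the median of the other 8 Pecam1-low libraries, while knockout-labelled female 2 held 1.22 times that of its level. Fbln2, fibulin-2, ran from 34.3 to 74.2 CPM in the Pecam1-high and from 1.95 to 10.7 CPM in the Pecam1-low libraries. Fbln1, fibulin-1, spanned 30.6 to 55.0 CPM and 11.1 to 23.0 CPM. The elastic-fibre protein Fbln5 and the calcification inhibitor Mgp had log2 ratios of 2.53 and 2.69. The crosslinking enzymes Lox and Loxl1 had 3.40 and 2.89, where Lox rested on 0 to 34 reads per Pecam1-low library and 1 of these held at most 3 reads.

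Adhesive and matricellular genes also all separated the levels. Sparc, a collagen-binding glycoprotein with the highest mean CPM of this class, stood at 53.0 and 129 CPM in knockout-labelled females 1 and 2, 60.3 and 101 CPM in knockout-labelled males 1 and 2, and 70.7 and 75.8 CPM in wild-type-labelled female 1 and male 1. Its Pecam1-low libraries stood at 10.1 and 12.7 CPM, 9.94 and 13.3 CPM, 19.7 and 17 CPM, and 26.3, 9.79 and 12.8 CPM, with the knockout labels first, and females before males within a label. Wild-type-labelled male 2 was highest among them, as for Pdgfra and Dcn.

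Postn (chromosome 3, 54361109 to 54391037, plus strand) had a different leading library. Postn stood at 14.5 and 38.8 CPM in knockout-labelled females 1 and 2, 24.0 and 52.3 CPM in knockout-labelled males 1 and 2, and 18.6 and 23.6 CPM in wild-type-labelled female 1 and male 1. Among the Pecam1-low libraries it stood at 2.05 and 3.24 CPM in knockout-labelled females, 2.74 and 4.12 CPM in knockout-labelled males, 8.09 and 4.19 CPM in wild-type-labelled females, and 5.48, 2.38 and 3.13 CPM in wild-type-labelled males. Knockout-labelled male 2 was the highest, at 2.21 times the median of the other 5, and led also for Thbs1, thrombospondin-1, and for Fbn1. Thbs1 ran from 5.63 to 11.9 CPM and from 1.11 to 4.31 CPM at the 2 levels, the narrowest gap of the 33. Fibronectin (Fn1) and the secreted glycoprotein Fstl1 had log2 ratios of 3.66 and 3.78.

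Among the proteases, inhibitors and procollagen-processing genes, 5 of 6 separated the levels. Timp2, an inhibitor of matrix metalloproteinases with the highest mean CPM of this class, stood at 53.3 and 75.4 CPM, 53.0 and 61.0 CPM, and 66.8 and 58.8 CPM in the Pecam1-high libraries, ordered as for Sparc. In the Pecam1-low libraries it stood at 21.9 and 24.2 CPM, 28.7 and 25.0 CPM, 23.5 and 24.2 CPM, and 31.4, 23.7 and 29.2 CPM. Timp2 had the narrowest spread of the 35 among the Pecam1-high libraries, 1.42-fold from lowest to highest, and a log2 ratio of 1.30. Its partner protease Mmp2 had a log2 ratio of 3.54, the secreted protease Htra3 3.06, the secreted serpin Serpinf1 3.10, and the procollagen C-proteinase enhancer Pcolce 2.22.

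Pcolce2, a second such enhancer (chromosome 9, 95637601 to 95698096, plus strand), was the other gene whose levels overlapped. It stood at 13.3 and 19.9 CPM, 16.9 and 13.4 CPM, and 15.1 and 13.1 CPM in the Pecam1-high libraries, ordered as for Sparc. The Pecam1-low libraries stood at 11.5 and 7.76 CPM, 8.68 and 11.9 CPM, 8.93 and 10.8 CPM, and 12.4, 6.81 and 14.4 CPM. The overlap rested on 1 library, wild-type-labelled male 4 at 14.4 CPM, and without it 34 of 35 genes separated the levels. The log2 ratio of Pcolce2 was 0.40.

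The intracellular markers separated the levels in 5 of 5 genes. Gsn, the actin-severing protein gelsolin, had the highest median of all 35 per kilobase in the Pecam1-high libraries, at 7.61 CPM per kb. It stood at 354 and 878 CPM, 349 and 430.2 CPM, and 482 and 321 CPM in the Pecam1-high libraries, ordered as for Sparc. Its Pecam1-low libraries stood at 34.7 and 45.5 CPM, 25.2 and 36.7 CPM, 55.3 and 75.9 CPM, and 108, 23.3 and 36.7 CPM. The intermediate filament Vim and the globin Cygb had log2 ratios of 2.51 and 3.30, and the RNA-binding protein Bicc1 1.60. Medag, named for adipogenesis in mesenteric fat cells, had 3.65, on 0 to 22 reads per Pecam1-low library with 2 of them at or below 3 reads. The 9 Pecam1-low libraries pooled 69 Medag reads, a mean below 10. Medag thus met the mean count of 10 only through the Pecam1-high libraries, and its separation was favoured by that rule.

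Within each Pecam1 level, 1 library led most of the genes. Knockout-labelled female 2 was the highest of the 6 Pecam1-high libraries in 31 of 35 genes, with a median of 1.77 times the median of the other 5, against 0.999 over all tested genes. The excess was uneven, at 3.26 times for Lox, 3.22 for Dcn and 3.17 for Lum, and 1.22 for Fbn1. Wild-type-labelled male 2 was the highest of the 9 Pecam1-low libraries in 27 of 35 genes, with a median of 2.52 times the median of the other 8, against 0.982 over all tested genes. Its excess reached 5.61 times for Lox and was 1.002 times for Thbs1. Both are mixed-sex libraries, and the part of that in these levels was not tested. Wild-type-labelled male 3 was the lowest of the 9 in 20 genes. Across the 35 genes, the log2 ratio between levels had a Spearman correlation of -0.02 with gene length and 0.01 with mean CPM, where the genes share all libraries.

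**Figure D2:**
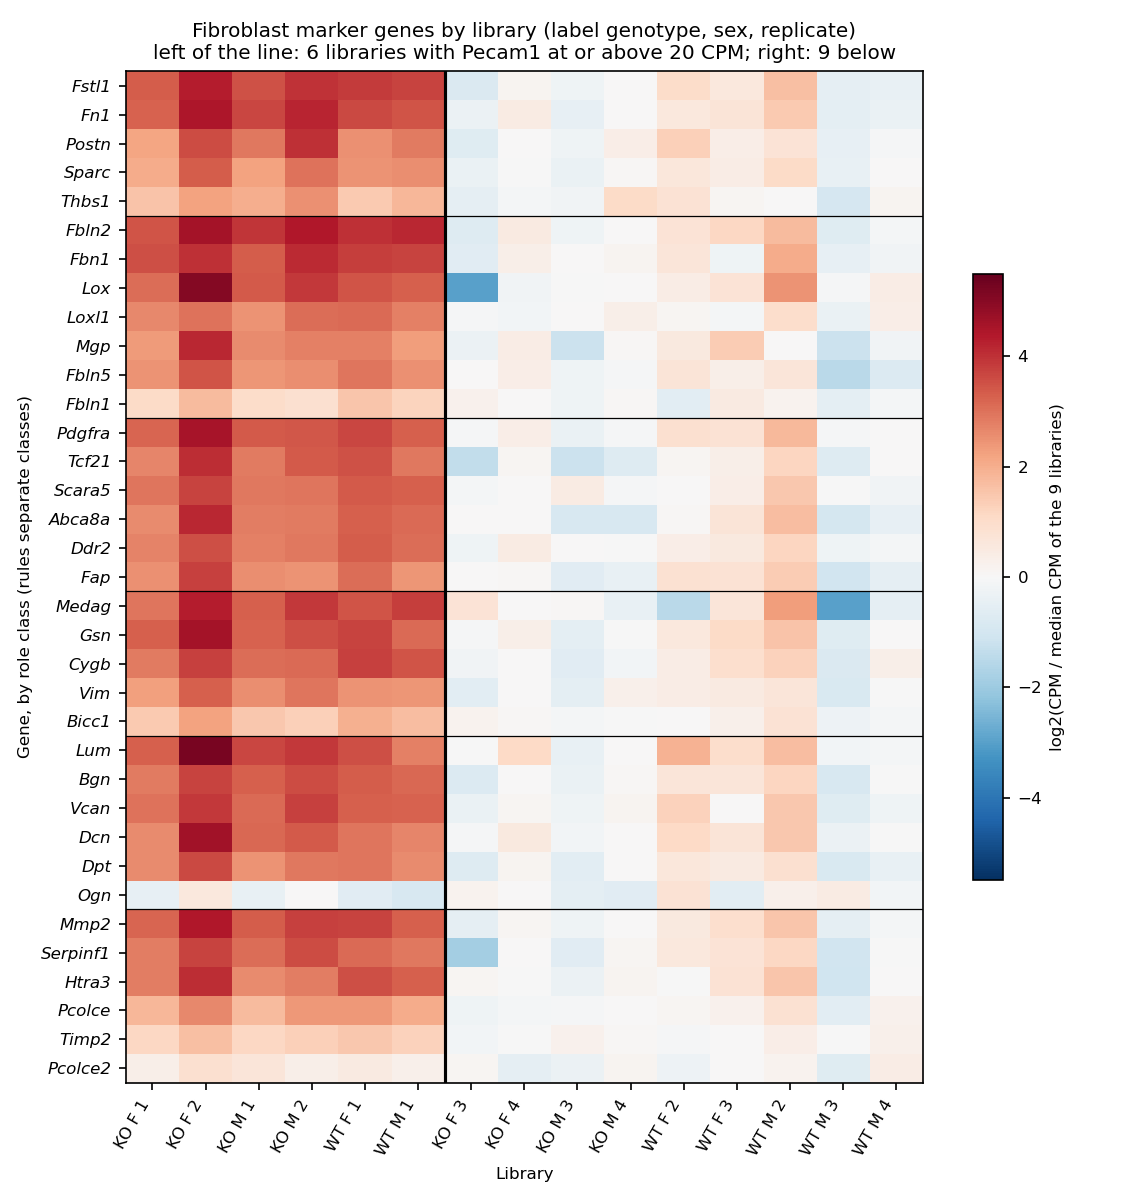
Level of each fibroblast marker gene (rows, by role class) in each library (columns), as log2 of its CPM over the median of the 9 Pecam1-low libraries (libraries at 0 counts are the darkest blue cells). The 6 columns left of the line are red in all rows except Ogn, palest in Pcolce2, and knockout-labelled female 2 and wild-type-labelled male 2 are the strongest columns of their sides.

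Other genes of the matrix and markers of other cells were read in the same libraries. All 14 of 14 collagen genes were higher in every Pecam1-high library than in every Pecam1-low one (median log2 ratio 3.60), and so were 27 of 31 other cardiac fibroblast genes (median 2.82). Of the pathways that drive fibroblasts, 7 of 19 tested TGF-beta pathway and myofibroblast genes did so (median 0.36) and 4 of 14 PDGF and FGF ligands and receptors (median -0.02). Markers of other cell types were also higher in this way: 15 of 16 endothelial markers (median 3.16), 9 of 13 leukocyte markers (median 2.67) and 10 of 10 epicardial markers (median 4.31). So were 7 of 11 mural markers (median 1.41, 1 in the opposite direction) and 4 of 4 adipocyte markers (median 2.73). For Schwann cell markers it was 1 of 5 (median 1.86), near the share of all tested genes. All these counts stand against 13.6% of the 17455 tested genes. In the Pecam1-low libraries alone, 3 epicardial, 0 adipocyte and 2 Schwann cell markers passed the expression filter. The others of these lists passed it only with the Pecam1-high libraries included, so their direction was largely set by the filter. Among 12 cardiomyocyte genes, 0 were higher and 1 was lower (median -0.04), and the share of all tested genes lower in this way was not counted.

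Summed levels showed the same contrast for fibroblast, leukocyte, epicardial and adipocyte markers, while the sums of endothelial, mural and Schwann cell markers overlapped. The 35 fibroblast marker genes summed to 1452 to 3274 CPM in the Pecam1-high and 248.6 to 633 CPM in the Pecam1-low libraries. Leukocyte markers summed to 84.4 to 190.3 CPM and 18.6 to 65.5 CPM, and epicardial markers to 22.7 to 54.8 CPM and 0.472 to 5.12 CPM, with 7 of these 10 genes at 0 in some library. Endothelial markers summed to 1294 to 2510 CPM and 1032 to 2403 CPM. The fatty acid transporter Cd36, which cardiomyocytes also express, is among these 16 genes, and its share of the sum was not tested. Mural markers summed to 558 to 669 CPM and 583 to 778 CPM, and Schwann cell markers to 14.3 to 25.9 CPM and 10.3 to 19.99 CPM. Adipocyte markers were near 0, at 0.952 to 2.49 CPM and 0.0768 to 0.190 CPM. Dcn per Pecam1 ranged from 1.79 to 4.13 in the Pecam1-high and from 3.03 to 5.86 in the Pecam1-low libraries. These ranges overlapped only through knockout-labelled female 2 (4.13) and knockout-labelled male 2 (3.18). The remaining Pecam1-high libraries, at most 2.59, lay below all Pecam1-low ones. Pecam1 also defined the 2 levels, so this ratio is not independent of the split. The summed fibroblast marker genes over the summed endothelial markers, Cd36 included, went the other way. That ratio ran from 0.964 to 1.48 in the Pecam1-high and from 0.159 to 0.326 in the Pecam1-low libraries. The part of other cell types in the RNA of the sorted nuclei was not tested.

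By genotype label, no fibroblast marker gene passed the test in either sex. In females 35 of 35 genes were higher under the knockout label, with a median log2 fold change of 0.44 (all tested genes: 0.03, with 55.4% higher), and 0 were called by edgeR's quasi-likelihood test with Benjamini-Hochberg adjustment, against 0% of tested genes. In males 34 of 35 were higher, with a median of 0.62 (all tested genes: 0.02, with 53.0% higher), and 0 were called, against 0.0115% of tested genes. At an unadjusted p under 0.05 the count was 0 of 35 in both sexes with edgeR, and DESeq2 and limma-voom also called 0. Markers of other cells were mixed in this fit, without a call. Endothelial markers were higher in 16 of 16 in females (median 0.54) and 15 of 16 in males (median 0.56). Epicardial markers were higher in 10 of 10 in both (medians 0.43 and 1.04), and mural markers in 8 and 10 of 11. Leukocyte markers were higher in 9 of 13 in females (median 0.19) and 5 of 13 in males (median -0.07). Adipocyte markers were higher in 2 of 4 in both (medians -0.34 and 0.23), and Schwann cell markers had medians of 0.04 and 0.02. Their part in the result was not tested. The exception in males was Ogn, at -0.38 ± 0.35 (SE). The groups are unevenly spread over the Pecam1 levels, with 2 of 4 libraries of each knockout group Pecam1-high, 1 of 3 wild-type-labelled females and 1 of 4 wild-type-labelled males.

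The named genes differed by less than 2 standard errors. Dcn was at 111 ± 148 CPM (SD, n = 4) in knockout-labelled and 51.0 ± 44.3 CPM (n = 3) in wild-type-labelled females, a log2 fold change of 1.12 ± 1.23 (SE), with an adjusted p of 1.0 (edgeR). In males Dcn was at 71.0 ± 67.6 CPM (n = 4) and 36.8 ± 34.5 CPM (n = 4), a log2 fold change of 0.95 ± 1.11, with an adjusted p of 0.999 (edgeR). Lum, with the second smallest p in females, had 1.11 ± 1.33. In males the smallest p belonged to Thbs1, at 1.03 ± 0.74, and Postn, at 1.26 ± 1.11. Pdgfra had log2 fold changes of 0.69 ± 1.32 in females and 0.60 ± 1.20 in males, Tcf21 0.47 ± 1.39 and 0.71 ± 1.28, and Postn 0.52 ± 1.20 in females.

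**Figure D3:**
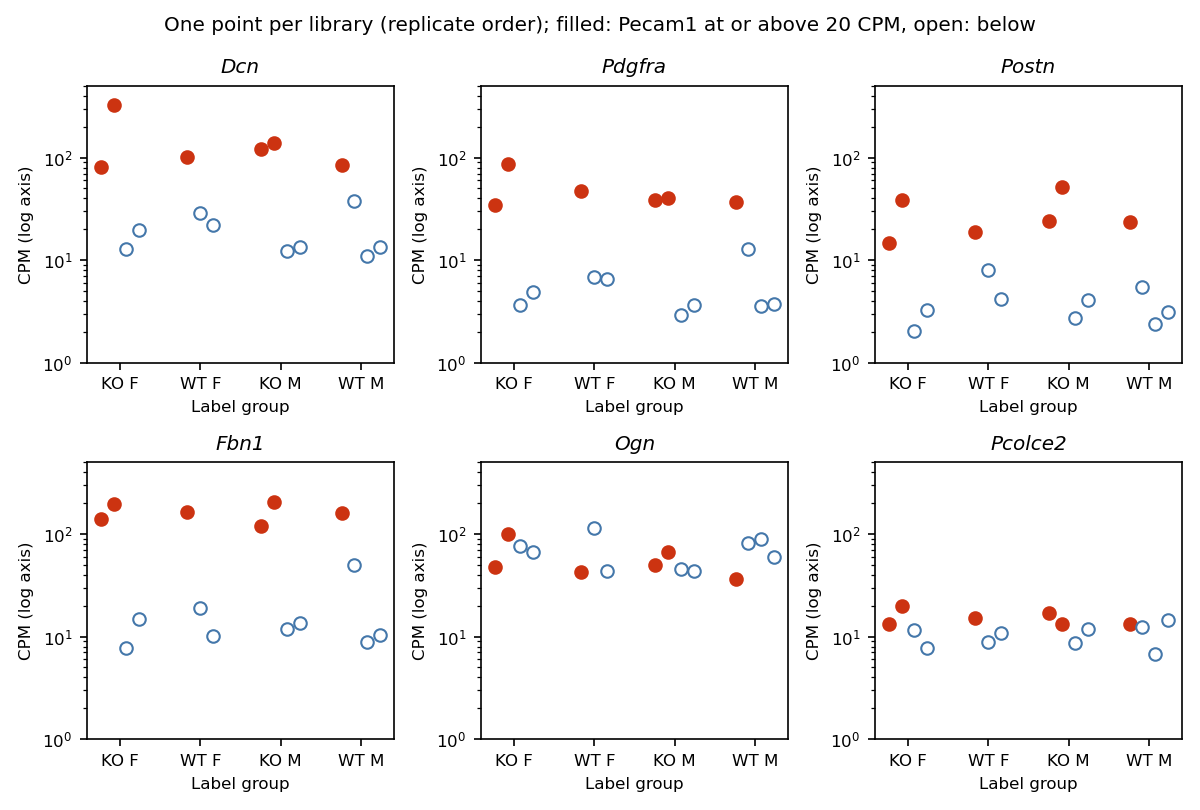
CPM (log axis) of 6 fibroblast marker genes in each library by label group, with filled points for Pecam1-high and open points for Pecam1-low libraries. The filled and open points are apart within every group for Dcn, Pdgfra, Postn and Fbn1, while those of Ogn overlap in knockout-labelled females and those of Pcolce2 in wild-type-labelled males.

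The direction of the label difference depended on the libraries and on the Pecam1 term: most genes were lower under the knockout label with the term and in the Pecam1-low libraries, and higher in the Pecam1-high libraries. With a term for the Pecam1 level in the same edgeR model, 6 of 35 genes were higher under the knockout label in females (median -0.20) and 5 of 35 in males (median -0.28). Of all tested genes, 49.0% in females and 46.1% in males were higher. No fibroblast marker gene was called, against 0.00573% and 0.0115% of tested genes. The common dispersion of the fit fell from 0.163 to 0.0434 with the term, and to 0.0584 with a block for replicate number instead. All replicates 1 were Pecam1-high and all replicates 3 and 4 Pecam1-low, so level and replicate number largely coincide. In the 9 Pecam1-low libraries alone, where 34 of the 35 could be tested, 1 was higher in females (median -0.68) and 3 in males (median -0.51). Called genes numbered 0 in both, against 0% of tested genes. Of all genes tested there, 52.0% in females and 47.8% in males were higher. The wild-type-labelled males there include male 2, a mixed-sex library that was the highest of the 9 in 27 of 35 genes. The male direction at this level without that library was not tested. In the 6 Pecam1-high libraries alone, with 1 wild-type-labelled library per sex, 28 of 35 were higher in females (median 0.21) and 26 in males (median 0.12). Of all genes tested there, 52.2% and 50.2% were higher. Leaving out the 3 mixed-sex libraries gave 1 of 35 higher in females (median -0.85) and 33 in males (median 0.56), against 48.1% and 46.1% of tested genes. Without knockout-labelled female 2 alone, 0 of 35 were higher in females (median -0.50), and without knockout-labelled male 2, 19 were higher in males (median 0.02).

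**Figure D4:**
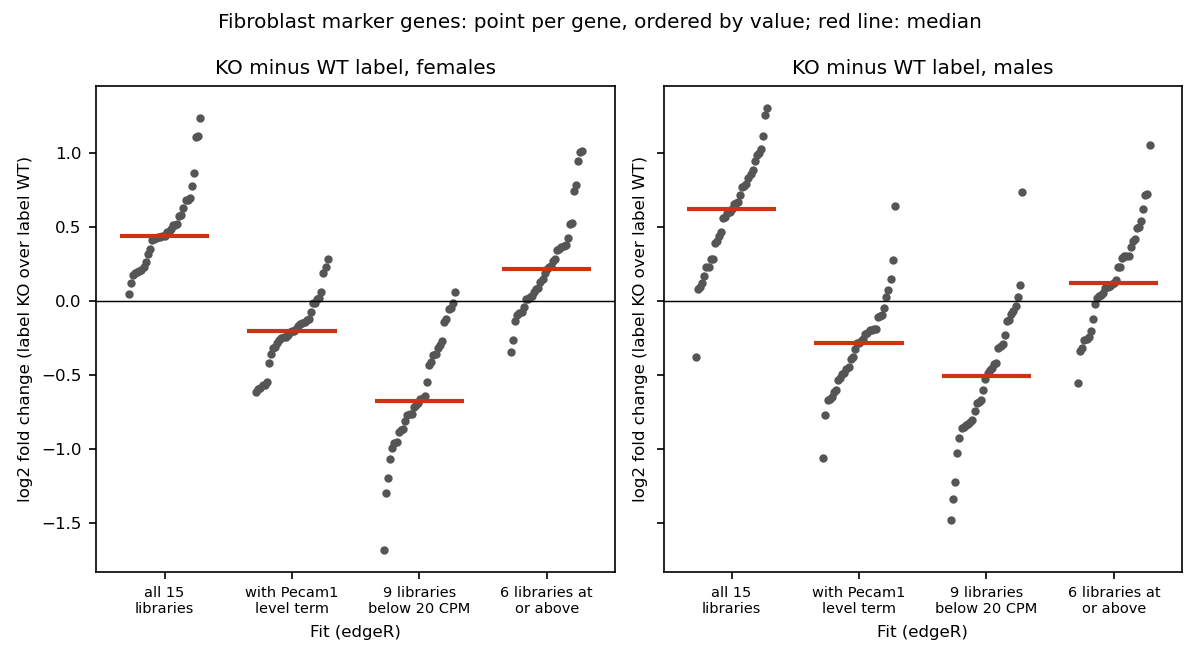
Log2 fold change (label knockout over label wild type) of each fibroblast marker gene in females and males under 4 edgeR fits, ordered by value, with the median as a red line. Medians are 0.44 and 0.62 with all 15 libraries, -0.20 and -0.28 with a Pecam1 term, -0.68 and -0.51 in the Pecam1-low and 0.21 and 0.12 in the Pecam1-high libraries.

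Among the Pecam1-low females, both knockout-labelled libraries lay below both wild-type-labelled ones in 21 of 35 genes and above them in 0, against 14.1% and 11.6% of tested genes. Among them were Dcn, Pdgfra and Postn, whose values are given above, and the 14 that overlapped were Tcf21, Ddr2, Bicc1, Medag, Lum, Ogn, Vcan, Fbln1, Fbln5, Fbn1, Loxl1, Timp2, Pcolce2 and Htra3. One of the 2 wild-type-labelled libraries here, female 2, is mixed-sex. Postn had the smallest p, with a log2 fold change of -1.20 ± 0.44 and an adjusted p of 1.0 (edgeR). Endothelial and leukocyte markers stood lower in the same libraries, 16 of 16 with a median of -1.04 and 13 of 13 with a median of -1.11, and their part was not tested. In Pecam1-low males, both knockout-labelled libraries lay below all 3 wild-type-labelled ones in 1 of 35 genes and above in 0, against 13.6% and 14.2% of tested genes. There Ogn had the smallest p, at -0.80 ± 0.33 with an adjusted p of 0.690 (edgeR).

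Related lists gave 0 calls as well. Collagens were higher under the knockout label in 14 of 14 in females (median 0.37; Col1a2 at 0.60 ± 1.37) and 14 of 14 in males (median 0.60; Col12a1 at 0.59 ± 0.69), and in 0 and 1 of 14 with the Pecam1 term. Other fibroblast genes were higher in 31 of 31 in females (median 0.37; Mfap2 at 1.16 ± 1.03) and 28 of 31 in males (median 0.56; Fmod at 1.02 ± 0.82), and in 7 and 10 of 31 with the term (medians -0.26 and -0.25). TGF-beta pathway and myofibroblast genes were split, 11 of 19 and 9 of 19 higher, with Ltbp1 at -0.23 ± 0.12 in males. PDGF and FGF genes were higher in 10 of 14 in females and 8 of 14 in males. Their smallest p was that of Pdgfd, a ligand of the PDGF beta receptor, at -0.80 ± 0.30 in females and -1.28 ± 0.28 in males, with an adjusted p of 0.999 in males (edgeR). Pdgfd kept its sign in both sexes with the Pecam1 term, at -0.92 ± 0.28 and -1.39 ± 0.27, without a call.

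The label effect was not shown to differ between the sexes. The difference of the effects (females minus males) was positive in 11 of 35 genes, with a median of -0.15 (all tested genes: 0.02, with 52.2% positive). Called genes numbered 0, against 0% of tested genes. The smallest p values of the difference were those of Ogn, at 0.50 ± 0.52, and Thbs1, at -0.68 ± 1.08. The count of positive genes moved from 1 without knockout-labelled female 2 to 34 without knockout-labelled male 2.

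Between the sexes within a genotype label, the 35 genes stood mostly higher in females and none was called. Under the knockout label 29 of 35 were higher in females, with a median of 0.34 (all tested genes: 0.01, with 52.0% higher). There 0 were called against 0.0229% of tested genes, and Ogn (0.49 ± 0.35) and Fbln1 (0.42 ± 0.53) had the smallest p. Under the wild-type label 32 of 35 were higher in females, with a median of 0.38 (all tested genes: -0.003, with 49.3% higher). There 0 were called against 0%, and Mgp (0.997 ± 1.17) and Lum (0.98 ± 1.29) had the smallest p. Leaving out knockout-labelled female 2 left 1 gene higher under the knockout label, and leaving out wild-type-labelled female 1 left 2 under the wild-type label. Within the Pecam1-low libraries, the 2 knockout-labelled females lay above the 2 knockout-labelled males in 5 genes (Fap, Abca8a, Bicc1, Ogn and Fbln5) and below them in 4, against 25.7% and 28% of tested genes. Wild-type-labelled females lay above the males in 1 gene, Mgp, and below in 0, against 5.74% and 7.74% of tested genes. Within the Pecam1-high libraries, knockout-labelled females lay above knockout-labelled males in 2 genes, Fbln1 and Htra3, and below them in 0, against 10% and 11.6% of tested genes. These shares are no larger than the background.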

How the data were processed

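RNA-seq was read from 15 libraries. The authors deposited raw counts per gene for 55536 genes, and reads were aligned with STAR 2.5.3a and counted with featureCounts 1.5.0 on GRCm38 (mm10), per the submitters' processing notes. The length of each gene equals its full span, so per-kilobase values are per gene body, introns included. The smaller deposited table keeps the 16610 genes with a mean count of at least 10.

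In R 4.3.3, edgeR 4.0.16 (filterByExpr, 17455 genes, TMM scaling, quasi-likelihood with robust dispersion) fitted 1 mean per group to all libraries, and Benjamini-Hochberg adjusted p below 0.05 over all tested genes was called. DESeq2 1.42.0, limma 3.58.1 (voom), other scalings and filters, a Pecam1 term, subsets, a replicate block and leaving out each library were alternatives. Per-library values are given for Dcn, Pdgfra, Tcf21, Postn, the gene of highest mean CPM in each role class and the genes whose Pecam1 levels overlap. Fold changes are named for Dcn, Pdgfra, Tcf21, Postn and the 2 genes with the smallest p per comparison, with up to 2 genes per list. One result under this rule is not reported here. The members and lists were chosen with earlier results of these data known. Same-numbered libraries had correlated deviations from their group means between the male groups (0.139 to 0.734) and between the sexes (0.511 to 0.857 under the knockout label, 0.306 to 0.885 under the wild-type label), and from -0.382 to 0.749 between the female groups, which were not treated as paired.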

Additional observations from a re-analysis of the deposited data

How the results depend on the processing

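In the replicate block fit, 34 genes were higher under the knockout label in females, 34 in males, 15 in the sex difference, and 28 and 27 in females under the knockout and the wild-type label; the block changed no call. Over 27 fits of 5 comparisons, 0 fibroblast marker genes were called, and the smallest adjusted p was 0.422 (edgeR, with the block). The 33 genes that separated the Pecam1 levels were 33 to 34 under every alternative run. None of 700 log2 ratios moved by over 1 SD, that of log2 CPM over the Pecam1-low libraries. These alternatives include Pecam1 limits of 10 and 30 CPM. No library lies between those limits, so they kept the same split and could move nothing. Of 416 log2 fold changes under alternatives, 33 reversed. The 416 include fits that leave out a library of a group outside the comparison, which could hardly change the value. So 33 of 416 is no measure of stability. The cause of the changes above was not tested.

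Genes higher under the knockout label in females numbered 6 with the Pecam1 term, 1 in the Pecam1-low libraries and 1 without the mixed-sex libraries, and 0 to 35 with each library left out. In males they numbered 5 and 3 in the first 2 settings, and 19 to 34 with each library left out. In the sex difference they numbered 17 with limma-voom, 23 with the term, 19 in the Pecam1-low and 21 in the Pecam1-high libraries, 1 without the mixed-sex libraries, and 1 to 34 with each left out. Female minus male gave 18 (Pecam1-low) and 1 (without those libraries) under the knockout label, 1 to 35 with each left out, and 2 to 35 under the wild-type label.

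Among reversed values, with the Pecam1 term, log2 fold changes in females were -0.19 for Pdgfra, -0.23 for Tcf21, -0.61 for Postn and -0.12 for Lum, and in males -0.28 for Dcn, -0.67 for Pdgfra and -0.60 for Tcf21, while Dcn in females (0.02) and Postn (0.28) and Thbs1 (0.64) in males kept their sign. In the Pecam1-low libraries they were -0.66 for Dcn, -0.66 for Pdgfra, -0.64 for Tcf21, -1.20 for Postn and -0.86 for Lum in females, and -0.69 for Dcn, -1.03 for Pdgfra, -1.22 for Tcf21 and -0.0898 for Postn in males. Without the mixed-sex libraries they were -0.70 for Dcn, -0.91 for Pdgfra, -1.23 for Tcf21, -0.78 for Postn and -0.68 for Lum in females, and -0.0028 for Fbln1 in knockout-labelled females against males. Tcf21 in males was -0.15 with limma-voom, and the sex difference of Thbs1 was 0.028 in the Pecam1-high libraries. With each library left out, female values ran from -0.43 to 2.12 for Dcn, -0.50 to 2.28 for Pdgfra, -0.77 to 2.39 for Tcf21, -0.63 to 1.26 for Postn and -0.45 to 2.14 for Lum, each lowest without knockout-labelled female 2. Tcf21 in males ran from -0.0775 to 1.85, Fbln1 between the sexes under the knockout label from -0.0030 to 0.63, and Lum under the wild-type label from -0.0521 to 1.80. Depth limits Medag, Lox and Tcf21, which have few reads in the Pecam1-low libraries.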
